A study of Mus musculus with 6 samples.

Results

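The genes of the epidermal growth factor (EGF) receptor family, their ligands and the feedback inhibitor Errfi1 were examined in E0771 mouse mammary tumour cells and in E0771-HML2, a derivative with high metastatic potential. The family was taken as 10 listed genes: the receptors Egfr, Erbb2 and Erbb3, the ligands Btc, Areg, Ereg, Hbegf, Tgfa and Nrg1, and Errfi1. A gene was represented by those array probe sets that the annotation assigns to its symbol alone, and among these by the one that was brightest on average on the log2 scale. Such probe sets were found for 9 of the 10 genes, of 18193 genes on the array in all, and they numbered 21. No probe set was assigned to Areg alone, so Areg was not analysed here. Signals of 7 members averaged at least 100 over the arrays, and these were tested among 9361 genes; Tgfa and Nrg1 lay below that limit and are given by their signals.

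E0771 is a mammary tumour line of C57BL/6 mice. The HML2 population is its second generation of in vivo selection: tumour cells injected into the fat pad of mice of the same strain were retrieved from the lung, in 2 successive rounds. RNA came from 3 parental and 3 HML2 dishes, labelled as biological replicates, after 3 days in medium with 10% serum, and 1 Affymetrix Mouse Genome 430 2.0 array was used per dish. No treatment or genetic change other than the selection is given in the labels. Whether the HML2 dishes descend from different mice is not given either, and p-values therefore reflect only how much these dishes varied.

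ERBB receptors are tyrosine kinases of the cell surface that pair with each other. Egfr binds ligands such as amphiregulin, epiregulin, betacellulin, heparin-binding EGF and TGF-alpha. Erbb3 binds neuregulins but has little kinase activity of its own, and Erbb2 has no known ligand and serves as a partner. The ligands are made as membrane-bound precursors and are released by metalloproteases. In mammary epithelium the family acts in duct growth and alveolar development, and Erbb2 is amplified in a subset of human breast cancers.

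In HML2 cells, transcripts of the receptor Egfr and of the ligands Btc and Ereg were lower, and those of the ligand Hbegf and of the inhibitor Errfi1 were higher. Differences are HML2 minus parental on the log2(signal + 50) scale, which understates changes of low signals, and calls were made at adjusted p-values under 0.05 (limma, Benjamini-Hochberg over all 9361 genes). By that rule 2 members were higher and 3 lower, and Erbb2 and Erbb3 were not called. Over all genes 12.3% were called higher, 14.9% lower and 27.2% in either direction. The HML2 and parental signals did not overlap for any of the 7 tested members, and for 44.4% of all genes tested they did not overlap either. The median log2 difference of the tested members was -0.31 and that of all genes -0.02. Btc passed the signal limit through its parental arrays, and 7 genes are few, so these shares describe the members and carry no test of the list.

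**Figure D1:**
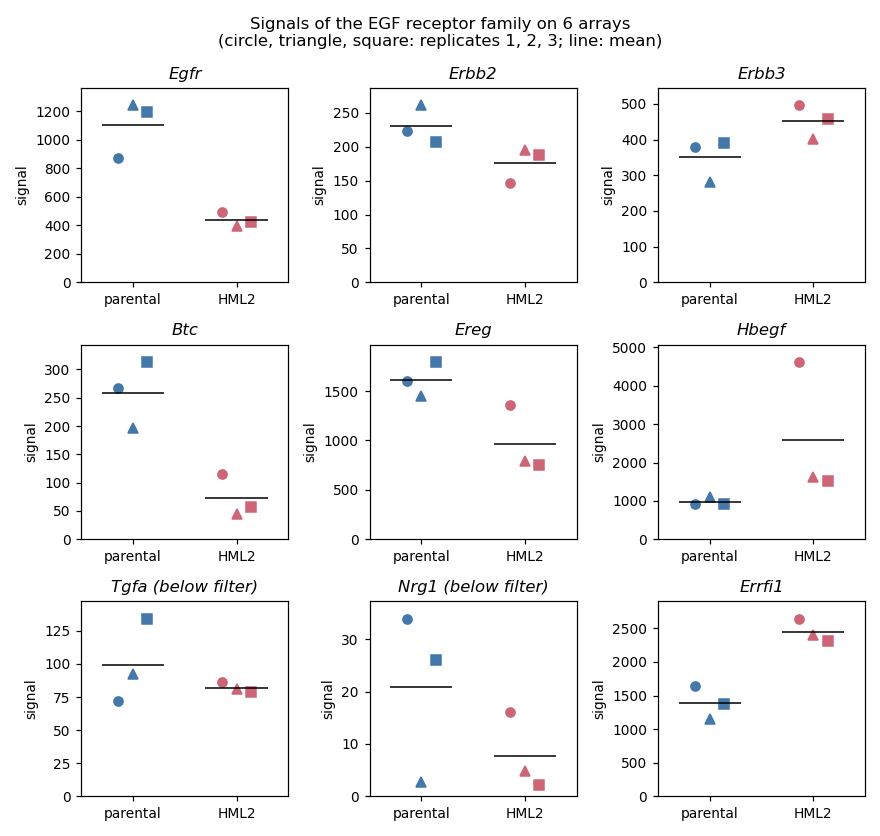
Signal (linear, arbitrary units) of the chosen probe set of each of 9 members on 3 parental (blue) and 3 HML2 (red) arrays, with circles, triangles and squares for replicates 1, 2 and 3 and a line at the group mean. The groups do not overlap in 7 panels, overlap for Tgfa and Nrg1, and the circle of HML2 replicate 1 stands at 4614 for Hbegf.

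Among the receptors, Egfr had signals of 869, 1240.4 and 1194 on the parental arrays and 495, 396 and 421 on the HML2 arrays. Every HML2 value was thus below every parental value, with a gap between the groups. The means were 1101 ± 203 and 437 ± 51.4 (SD, n = 3), a log2 difference of -1.23 ± 0.17 (SE; adjusted p = 0.0016, limma), or 2.35-fold lower. The call was kept under all 17 alternative settings, with adjusted p-values of 2.4e-06 to 0.030. Apart from the mean of the probe sets, these settings rested on the same Egfr probe set.

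The log2 difference of -1.23 rests on 1 of the 7 probe sets assigned to Egfr. The bright probe set 1435888_at fell, whereas the other probe sets that passed the signal limit did not pass the test. Probe set 1424932_at had 209, 308 and 241 on parental and 306, 157 and 130 on HML2 arrays, and its groups overlap. Its log2 difference was -0.34 ± 0.27 (adjusted p = 0.38, limma over probe sets). Probe set 1460420_a_at, of the kind designed to match several transcripts of a gene, had 195, 174 and 190.2 on parental and 159, 178 and 114 on HML2 arrays, with a difference of -0.25 ± 0.18 (adjusted p = 0.35). The remaining 4 had mean signals of 12.0 to 63.4, below the signal limit. Of these, 1432647_at (63.4) and 1451530_at (45.2) lay above the range of 3 bacterial tryptophan control probe sets (1.97 to 36.2), which should not hybridise to mouse RNA. The means of 1454313_at and 1457563_at lay within that range. With the mean of the 3 passing probe sets in place of the brightest, the Egfr difference was -0.61 (adjusted p = 0.030). Which transcripts or which part of Egfr each probe set reads was not analysed here.

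**Figure D2:**
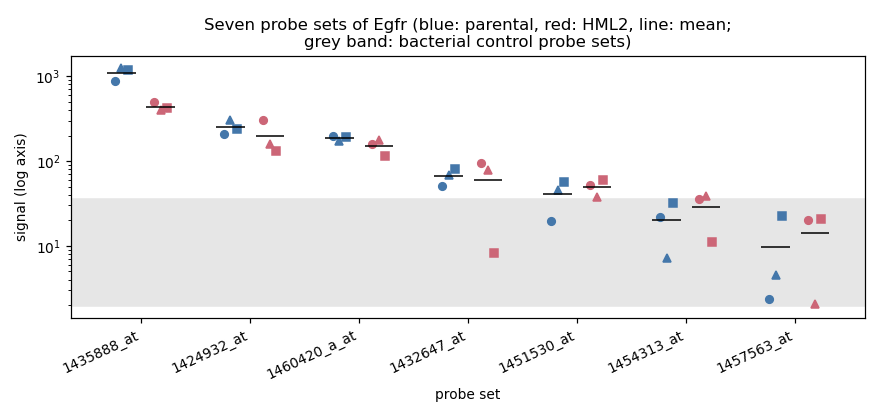
Signals (log axis) of the 7 Egfr probe sets on parental (blue) and HML2 (red) arrays, with symbols for replicates 1, 2 and 3, a line at each mean and a grey band from 1.97 to 36.2 for the bacterial control probe sets. The groups separate for 1435888_at and overlap for the others.

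Erbb2, the coreceptor, had signals of 224, 261 and 206 on parental and 146, 195 and 188 on HML2 arrays. The highest HML2 value lay just below the lowest parental one. Its log2 difference was -0.31 ± 0.17, with a 95% interval of -0.71 to 0.09 (adjusted p = 0.22, limma). Erbb3, the neuregulin receptor, had 380.1, 280.2 and 389 on parental and 496, 401 and 458 on HML2 arrays. The order was the reverse of Erbb2, again with little room between the groups. Its difference was 0.33 ± 0.17, with an interval of -0.05 to 0.72 (adjusted p = 0.18). Neither gene was called under any of the 17 alternatives, and the outer bounds of the intervals leave room for changes of up to -0.71 for Erbb2 and 0.72 for Erbb3. Erbb3 also has a second probe set, with a mean signal of 12.1, within the range of the bacterial controls. Erbb4, the other receptor of the family, averaged 5.54 in parental and 3.04 in HML2 cells, within that range.

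To show the sequence next to the start of the receptor gene that changed, the 250 bases before the start of Egfr are printed from RefSeq (assembly GRCm38.p6, plus strand, chr11:16751953-16752202). Windows of this kind are described for 6 of the 10 members, 7 windows in all. Ereg, Erbb3 and Nrg1 had no window, and Hbegf was left out of this description. The 7 windows were searched on both strands for AP-1 (TGANTCA), the GC box (GGGCGG), the TATA box (TATAAA), the cyclic AMP response element (TGACGTCA), and, by name, for NF-kB and serum response factor motifs. Capitals mark each match, here a single GC box on the reverse strand from 9 to 4 bases before the start. A GC box is present in 32.7% of 32851 such windows over all genes.
Egfr: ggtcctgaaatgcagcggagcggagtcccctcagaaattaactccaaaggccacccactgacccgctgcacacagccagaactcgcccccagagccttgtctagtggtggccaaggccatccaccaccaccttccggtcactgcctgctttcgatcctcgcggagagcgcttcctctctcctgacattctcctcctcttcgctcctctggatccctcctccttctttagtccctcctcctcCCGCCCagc

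Betacellulin, encoded by Btc, binds Egfr and Erbb4. Its signals were 267, 197 and 313 on the parental arrays and 115, 43.8 and 57.4 on the HML2 arrays, and the groups did not overlap. The log2 difference was -1.36 ± 0.26 (adjusted p = 0.0060, limma), or 2.57-fold lower on this scale, and it was called under all 16 alternatives that tested it. With an offset of 16 in place of 50 the difference was -1.70, since the HML2 signals are close to the offset. Its other probe set, 1421161_at, averaged 50.03 in parental and 24.7 in HML2 cells, with overlapping groups and no test. The 250 bases before the start of Btc (GRCm38.p6, minus strand, chr5:91402995-91403244), shown because Btc was called lower, hold no match to the motifs searched.
Btc: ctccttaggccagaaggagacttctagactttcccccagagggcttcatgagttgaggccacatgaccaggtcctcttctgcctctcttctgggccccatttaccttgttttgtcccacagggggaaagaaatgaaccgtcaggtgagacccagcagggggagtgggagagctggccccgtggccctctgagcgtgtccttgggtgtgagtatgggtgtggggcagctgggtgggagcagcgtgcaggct

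Epiregulin, encoded by Ereg, binds Egfr and Erbb4. It had signals of 1604, 1450 and 1791 on parental arrays and 1357, 788 and 752 on HML2 arrays. HML2 replicate 1 lay just below the lowest parental array, and the other HML2 arrays lay well below it. The log2 difference was -0.76 ± 0.22 (adjusted p = 0.035, limma), or 1.69-fold lower. The call was lost without a signal filter and when any array other than HML2 replicate 1 was left out, and adjusted p-values over the 17 alternatives ran from 1.4e-05 to 0.13. Without HML2 replicate 1 the difference was -1.02 (adjusted p = 4.4e-04).

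Hbegf encodes heparin-binding EGF, a ligand of Egfr and Erbb4. It had signals of 916, 1105 and 922 on parental arrays, and 4614, 1621 and 1515 on HML2 arrays. All HML2 values exceeded all parental values, and HML2 replicate 1 stood far above the others. The means were 981 ± 107 and 2583 ± 1759 (SD, n = 3), a log2 difference of 1.16 ± 0.37 (adjusted p = 0.048, limma). Without HML2 replicate 1 it was 0.65 ± 0.13 (adjusted p = 0.0043), and with array weights 0.74. The call was lost without any single parental array, without a filter, without the intensity trend and with the mean of the probe sets, with adjusted p-values of 0.0019 to 0.14 over the 17 alternatives. A second probe set, 1418349_at, behaved alike, with 258, 329.5 and 215 on parental and 1424, 443 and 464 on HML2 arrays and a difference of 1.20 ± 0.38 (adjusted p = 0.049, limma over probe sets).

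The ligands Tgfa and Nrg1 were below the signal limit. Tgfa, which encodes TGF-alpha, had 71.6, 92.1 and 134 on parental and 86.0, 81.1 and 78.8 on HML2 arrays, with overlapping groups. In the fit without a signal filter its log2 difference was -0.16 ± 0.22 (adjusted p = 0.74, limma). Nrg1, which encodes neuregulin 1, had 33.9, 2.74 and 26.0 on parental and 16.04, 4.86 and 2.13 on HML2 arrays. All 6 values fell in the range of the bacterial controls, so no change could be read from this probe set (difference -0.28 ± 0.19, adjusted p = 0.45 without a filter). Neuregulin 1 has many transcript forms, and 1 probe set was assigned to it.

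HML2 replicate 1 was the highest HML2 array for the tested ligands Btc, Ereg and Hbegf and for Egfr, Erbb3 and Errfi1, and the lowest for Erbb2. It was also the highest for Tgfa and Nrg1, but both lay below the signal limit, Nrg1 in the range of the bacterial controls. Relative to the mean of the other HML2 arrays, HML2 replicate 1 was higher by 1.53 for Hbegf, 0.78 for Ereg, 0.72 for Btc and 0.25 for Egfr on the log2 scale. Over all tested genes this deviation had a median of 0.01 and an SD of 0.50. On the parental arrays the largest deviations of tested members were -0.46, for Egfr on replicate 1 and for Btc on replicate 2. Nrg1, at background signals, had -0.60 on parental replicate 2.

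Errfi1, also known as Mig6, encodes a cytosolic protein that binds the kinase domain of ERBB receptors, inhibits them and is itself induced by their signalling. It had signals of 1644, 1143 and 1371 on parental and 2638, 2396 and 2315 on HML2 arrays, and every HML2 value exceeded every parental one. The log2 difference was 0.81 ± 0.15 (adjusted p = 0.0058, limma), or 1.76-fold higher. A second probe set, 1419816_s_at, had 207, 194 and 171 on parental and 392, 299 and 281 on HML2 arrays, with a difference of 0.63 ± 0.17 (adjusted p = 0.029, limma over probe sets). Its suffix marks probes that may also match related transcripts. The call of Errfi1 was kept under all 17 alternatives, with adjusted p-values of 5.8e-05 to 0.031.

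RefSeq gives 2 starts for Errfi1. The 250 bases before the downstream start (GRCm38.p6, plus strand, chr4:150854820-150855069) are shown because they hold the most matches among the 7 windows described. Capitals mark 3 GC boxes on the reverse strand, of which a pair overlaps, a cyclic AMP response element from 51 to 44 bases before the start and a TATA box from 28 to 23 bases before it. That response element occurs in 1.55% of all windows and the TATA box in 12.4%. The window before the upstream start of Errfi1 held no match, and that of Areg held 1 GC box, 1 TATA box and 1 cyclic AMP response element. None of the 7 windows held an AP-1, NF-kB or serum response factor match, which are found in 6.75%, 7.25% and 1.47% of all windows. Hbegf is not among the 7 windows, so nothing is said of its sequence. A match describes letters and is no evidence of binding.
Errfi1: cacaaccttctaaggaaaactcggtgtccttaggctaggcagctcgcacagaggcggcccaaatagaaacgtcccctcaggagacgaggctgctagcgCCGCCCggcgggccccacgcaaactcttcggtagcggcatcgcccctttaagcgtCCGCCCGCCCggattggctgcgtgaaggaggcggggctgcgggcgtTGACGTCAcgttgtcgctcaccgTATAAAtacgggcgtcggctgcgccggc

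**Figure D3:**
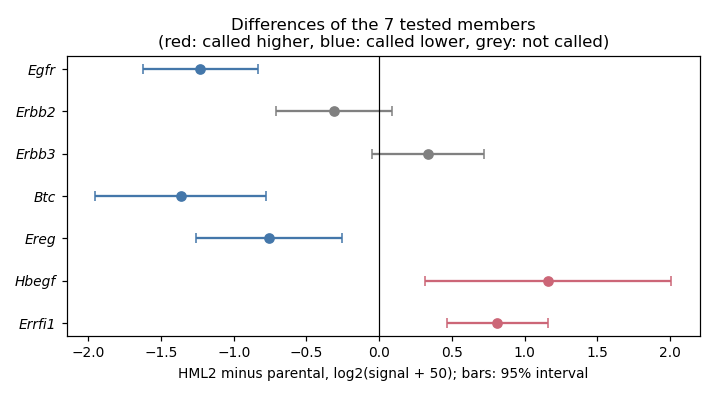
Log2 difference, HML2 minus parental on the log2(signal + 50) scale, of the 7 tested members, with 95% intervals from limma. Hbegf (1.16) and Errfi1 (0.81) were called higher (red), Egfr (-1.23), Btc (-1.36) and Ereg (-0.76) lower (blue), and the intervals of Erbb2 and Erbb3 (grey) cross 0.

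Ereg, Areg and Btc lie side by side on mouse chromosome 5, together with another ligand gene of the family, Epgn, and next to a group of CXC chemokine genes. Their order in the RefSeq gene table was Pf4, Cxcl3, Cxcl15, Cxcl1, Cxcl2, Mthfd2l, Epgn, Ereg, Areg, Btc and Parm1, with genes of noncoding RNAs between them. Of these 17 genes in all, 11 had a probe set of their own and 6 were tested. Among the tested genes, the chemokine genes were higher and the ligand genes Ereg and Btc lower. Cxcl1, Cxcl2 and Cxcl3, which encode neutrophil attractants, were higher by 5.02 ± 0.32, 3.88 ± 0.53 and 2.58 ± 0.41 on the log2 scale (adjusted p-values of 3.7e-05, 0.0015 and 0.0029, limma). The parental signals of Cxcl2 (36.0, 17.9 and 28.9) all lay within the range of the bacterial controls, and it passed the signal limit through its HML2 arrays. Its difference was 4.68 with an offset of 16 and 3.24 with 100, and 3.15 without HML2 replicate 1. Mthfd2l, a folate enzyme gene between the chemokines and Epgn, was higher by 0.50 ± 0.13 (adjusted p = 0.024), and this call was lost under 5 of 17 alternatives. These were the mean of its probe sets, with a difference of 0.19, and leaving out parental replicate 1 or 2 or HML2 replicate 2 or 3, with adjusted p-values up to 0.24 over all alternatives. Epgn, which encodes epigen, had 48.2, 60.7 and 37.8 on parental and 71.0, 102 and 62.7 on HML2 arrays. Every HML2 value of Epgn exceeded every parental one, opposite to the direction of Ereg and Btc, but it was not tested because of its low signal. Pf4, Cxcl15, Gm19619 and Parm1 were also below the limit, with mean signals of 14.2 to 79.1.

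**Figure D4:**
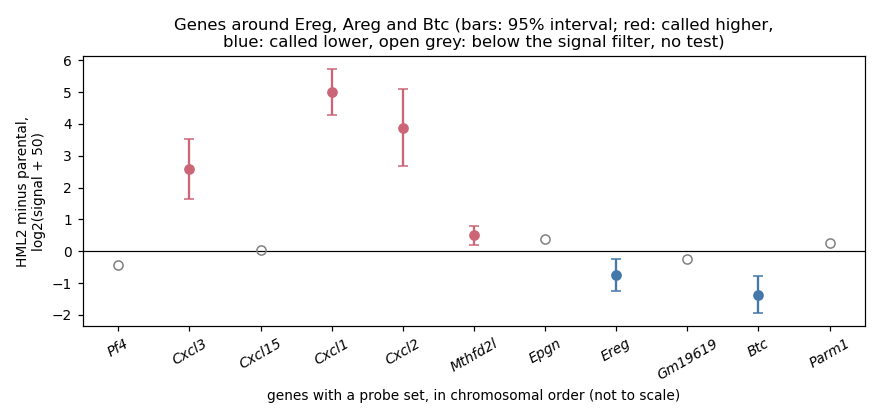
Log2 difference, HML2 minus parental, of the 11 genes with a probe set around Ereg and Btc, in chromosomal order and not to scale, with 95% intervals for the 6 tested genes and open grey points for untested ones. Values run from 5.02 for Cxcl1 to -1.36 for Btc, and the tested genes on the left of Epgn are above 0 and those on its right below 0.

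Other genes of the pathway were taken as 58 genes in 4 lists, of which 46 were tested. In all, 5 were higher and 7 lower, to be read beside the 12.3% and 14.9% of all genes, and their median log2 difference was -0.04. Of the remaining receptor and ligands (Erbb4, Egf, Epgn, Nrg2, Nrg3 and Nrg4), 1 was tested. Nrg2, another neuregulin gene, had 136, 113 and 156 on parental and 239.97, 229 and 140.2 on HML2 arrays, with overlapping groups and a difference of 0.43 ± 0.22 (adjusted p = 0.17, limma).

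Of 8 tested genes for the release of ligands, 1 was higher and 1 lower, beside the 12.3% and 14.9% of all genes. Adam10, a metalloprotease that sheds betacellulin and EGF among other substrates, had 6237, 5786 and 6842 on parental and 3029, 3001 and 3247 on HML2 arrays. These groups lay far apart relative to their spread, and the log2 difference was -1.01 ± 0.11 (adjusted p = 5.2e-04, limma). Rhbdf2, an inactive rhomboid protein that supports the maturation and activity of Adam17, had 129, 22.9 and 79.9 on parental and 454, 224 and 255 on HML2 arrays. Its difference was 1.54 ± 0.36 (adjusted p = 0.014), from parental signals that reached the range of the bacterial controls on 1 array. It passed the signal limit through its HML2 arrays. Both calls were kept under every alternative that tested them. Adam17 itself, the main sheddase of amphiregulin, epiregulin, TGF-alpha and heparin-binding EGF, was named after its values were seen. Its means were 2575 ± 338 and 2853 ± 196, a difference of 0.15 with an interval of -0.15 to 0.45 (adjusted p = 0.43).

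Of 21 tested signal relay genes, which encode adaptors, RAS and RAF proteins and kinases downstream of the receptors, 4 were higher and 3 lower, beside the 12.3% and 14.9% of all genes. Grb2, the adaptor that links receptors to RAS activation, was higher by 0.72 ± 0.12 (adjusted p = 0.0037, limma), but by 0.18 with the mean of its probe sets, when it was not called (adjusted p = 0.29; 4.2e-05 to 0.29 over the alternatives). Nras, a RAS protein gene, had 1986, 2075 and 2352 on parental and 3098, 3742 and 3861 on HML2 arrays, a difference of 0.72 ± 0.13 (adjusted p = 0.0051), and was called under all alternatives. Eps8, an EGF receptor substrate that links to actin, was higher by 0.62 ± 0.18 (adjusted p = 0.037), a call lost under 5 of 17 alternatives. Named after their values were seen, the other called genes were Pik3r1 (0.53), a regulatory subunit of PI3 kinase, which was higher, and the phospholipase gene Plcg1 (-0.59), the RAS exchange factor gene Sos1 (-0.49) and the phosphatase gene Ptpn11 (-0.39), which were lower.

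Of 16 tested genes for attenuation and traffic of the receptors, 0 were higher and 3 lower (limma), beside the 12.3% and 14.9% of all genes. At an unadjusted p below 0.05, 2 were higher, Lrig2 (0.56) and Stam (0.35), and 4 lower, the called genes and Lrig3 (-0.75), against 1715 higher and 1955 lower of all 9361 genes. Sh3kbp1, which encodes CIN85, an adaptor of Cbl in receptor internalisation, had 1300.3, 1691 and 1393 on parental and 417, 515 and 646 on HML2 arrays. The groups were widely separated, and the difference was -1.40 ± 0.18 (adjusted p = 0.0011), called under all alternatives. Eps15, an endocytic adaptor gene, had a difference of -0.60 ± 0.12 (adjusted p = 0.0072), but of -0.28 with the mean of its probe sets, which ended the call (adjusted p = 0.11; 1.6e-04 to 0.11 over the alternatives). Rasa1, a RAS inactivator gene, had a difference of -0.40 ± 0.12 (adjusted p = 0.040), a call lost under 7 of 17 alternatives. The other 13 did not pass the test, among them the ubiquitin ligase genes Cbl (0.27) and Cblb (-0.29) and the receptor inhibitor gene Lrig1 (-0.40), named after their values were seen.

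**Figure D5:**
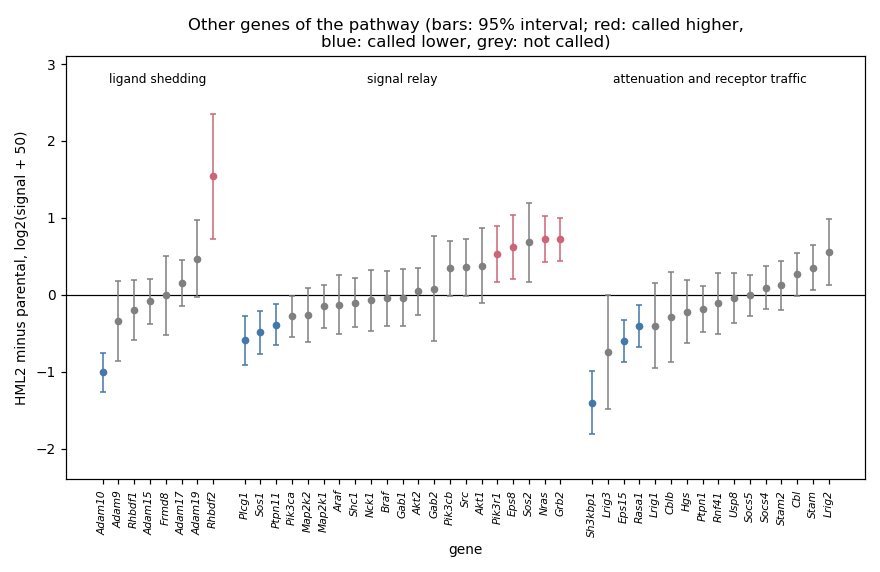
Log2 difference, HML2 minus parental, with 95% intervals from limma, of the tested genes for ligand shedding (8), signal relay (21) and attenuation and receptor traffic (16), ordered by size within each list. Red points were called higher, blue points lower and grey points not called, with the extremes at 1.54 (Rhbdf2) and -1.40 (Sh3kbp1).

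Of the mammary epithelial markers checked, Krt8 averaged 1095 ± 60.3 in parental and 4175 ± 649.8 (SD, n = 3) in HML2 cells. Epcam went the other way, with 133 ± 24.5 and 83.5 ± 15.0 and groups that did not overlap. Its log2 difference of -0.45 was not called (adjusted p = 0.12, limma), and it passed the signal limit through its parental arrays. Below the signal limit, Krt18 averaged 34.2 in parental and 86.02 in HML2 cells and Krt5 26.1 and 58.5, whereas Cdh1 (22.9 and 19.4) and Krt14 (14.4 and 8.53) lay in the range of the bacterial controls in both groups. The summed signal of the 6 epithelial markers was 1261 to 1399 on parental and 3834 to 5121 on HML2 arrays, and most of it is Krt8. That of 6 fibroblast markers was 2460 to 4518 and 1156 to 2116, and it rests on Pdgfra and Pdgfrb, while Dcn, Lum and Thy1 averaged 9.74 to 29.4 in either group. Pdgfra was called lower (-1.09, adjusted p = 0.0052, limma). Pdgfrb was not called (-1.18, adjusted p = 0.053), and its groups overlapped. Col1a1, below the signal limit, averaged 71.8 in parental and 20.8 in HML2 cells. The fibroblast sum was lower in HML2 cells, and the epithelial sum was higher. Any lower or higher gene matches 1 of these sums in direction, so direction alone links no member to them. The part of these markers in the differences of the members was not tested. In bulk RNA, fewer cells of a type and less RNA per cell cannot be told apart. Of the leukocyte, endothelial and lung epithelial markers, 2 of 15 passed the signal limit, Lyz2 (192 ± 28.9 and 78.9 ± 8.29) and Sftpb (83.2 ± 6.71 and 120.3 ± 32.5). Lyz2 was called lower (log2 difference -0.91, adjusted p = 0.0074, limma), and Sftpb was not called. Lyz2 passed the signal limit through its parental arrays and Sftpb through its HML2 arrays. The sums of each list overlapped between groups. In the leukocyte sum, Cd68 had 215.5 on HML2 replicate 1, and 55.1 and 47.6 on the other HML2 arrays. Ratios of 3' to 5' control probe sets, a sign of RNA quality, overlapped for Gapdh (0.77 to 0.82). For beta-actin they were 1.41 to 1.53 on parental and 1.36 to 1.39 on HML2 arrays, without overlap. The share of probe sets at or above a signal of 100 also separated the groups, with 40.5% to 41.6% on parental and 39.7% to 40.2% on HML2 arrays. The part of both measures in the results was not tested. With 3 arrays per group the precision of each value is limited.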

How the data were processed

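The authors deposited unlogged intensities from MAS5 (per the submitters' processing notes), with 1 value for each probe set on each array and version and settings not given in the sources used here. The trimmed mean after leaving out 2% at each end was 500 on all 6 arrays, so differences in total messenger RNA are removed. Of 45101 probe sets, 34945 had 1 symbol in the 2016 annotation and were not array controls, and 34741 of these were matched to RefSeq genes (GRCm38.p6) to update names.

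An offset of 50 was added before taking log2. Probe sets averaging under 100 were left out, and the brightest of the rest stood for a gene. The group difference was fitted without covariates in limma 3.58.1 under R 4.3.3 (lmFit, eBayes with an intensity trend), tested on simulated data, with Benjamini-Hochberg adjustment over 9361 genes; members' further probe sets were adjusted over all passing probe sets. Intervals are 95% intervals of the moderated estimate. Arrays with the same replicate number in the labels deviated together from their group means, with correlations across genes of 0.45, 0.34 and 0.24. Pairs of unlike number had -0.38 to 0.24, the highest being parental replicate 2 with HML2 replicate 3. The number entered as a block in an alternative. Other alternatives were the offset, scaling, signal filter, choice of probe set, intensity trend, array weights and leaving out each array. All member and list choices were made with earlier results of these data known. Named were all members, up to 3 called genes of each pathway list by size, filled to 2 by brightness, and the neighbours of Ereg and Btc. A planned description of the ligands' EGF-like domains was not made, because no protein sequences were used here. Promoter windows are RefSeq's, without the 50 bases after the start.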

Additional observations from a re-analysis of the deposited data

How the results depend on the processing

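The log2 differences of the 7 tested members kept their direction under all alternatives that tested them. The 3 lower members became 2 without a signal filter and with a minimum signal of 200, which leaves Btc untested, and ran from 2 to 3 when an array was left out. The 2 higher members became 1 without a filter, with the mean of the probe sets and without an intensity trend, and ran from 1 to 2 when an array was left out. Of the other pathway genes, 5 were higher, but 3 without a filter, 11 with array weights, 8 with the replicate block and 3 to 7 with an array left out, and 7 were lower, but 12 with array weights and 3 to 10 with an array left out. Over all genes, there were 2422 higher and 2631 lower calls with array weights, and leaving out an array gave 590 to 1577 and 795 to 1845, with the lowest counts without parental replicate 3. The replicate block changed no call of a member. The cause of these shifts was not tested. The difference of Nrg1, at background signals, was -0.57 with an offset of 16. Without parental replicate 3 that of Tgfa was 0.01, against -0.16.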
